A study of Mus musculus with 12 samples.

Results

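The windows described here were ATAC-seq peaks that lay over protein-coding exons and away from promoters. A window was included when at least 100 of its 201 bases were coding in GENCODE M21 and when its edge lay more than 1 kb from every annotated transcription start site. This held for 2466 of the 176680 peaks in the authors' table, and 3 of them covered coding exons of Prox1, the transgene, and were set apart, which left 2463 peaks in 2166 genes. The cells were primary mouse embryonic fibroblasts (MEFs) from E13.5 embryos of the C57BL/6N strain, with the genotype WT, collected on day 2. The series held 12 libraries in 4 groups of 3, and the table covered 2 of the groups. Both received lentivirus for rtTA, the doxycycline-controlled activator, and for 4in1 (LV.4TF), a single vector for the transcription factors of hepatocyte reprogramming. The 4in1_GFP_OE group also received tetO-GFP as the control transgene, and the 4in1_Prox1_OE group received tetO-FLAG-mmProx1 in its place. All wells had 2 µg/ml doxycycline. Delivery was by lentivirus into a mixed culture, so untransduced cells can be part of each library, and MEFs were prepared from the limbs of pooled embryos. The study describes its replicates as independent biological ones, and which MEF line each library came from was not given in the sources used here.

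ATAC-seq uses the Tn5 transposase, which cuts DNA where it is not wrapped by nucleosomes, so the read number in a window reports how open the chromatin was. Coding exons are seldom regulatory: they are rich in G and C and often carry a positioned nucleosome, yet some hold enhancer activity or binding sites for transcription factors, which then share their bases with codons. PROX1 is a homeodomain transcription factor that is known as a repressor in hepatocytes and as an activator in other lineages such as lymphatic endothelium. The comparison asked how accessibility differed when Prox1 was added to the 4in1 factors.

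For each window the table gives the authors' mean of normalized reads in each group, on a log2 scale, and the mean concentration over both groups. The difference used below is the log2 mean of 4in1_Prox1_OE minus that of 4in1_GFP_OE, so a negative value means fewer reads with Prox1. A difference of 1 log2 unit is 2-fold. Only these group means were used, without the libraries behind them. No error, test or replicate check could therefore be attached to any difference below, and a group mean can rest on 1 of its 3 libraries. In bulk cells, a window that was less open in all cells and a window that was open in fewer cells cannot be told apart.

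The windows at both ends of the range of differences, and the most accessible ones, are shown first, because the sequence features described later (base composition, repeats, the AP-1 word and the exon edge) can be seen in them. Each is read from GRCm38 on the strand of its gene, 5′ to 3′, with coding bases in capitals and intron in lower case. The first 3 had the lowest differences among windows at or above the median concentration of all peaks. Zfp760 (chr17:21723497-21723697, plus strand) is a zinc finger gene and the window lay in its last coding exon. Clcn1 (chr6:42299450-42299650, plus strand) encodes the chloride channel of skeletal muscle. Atg7 (chr6:114701842-114702042, plus strand) encodes an enzyme of autophagosome formation.
Zfp760: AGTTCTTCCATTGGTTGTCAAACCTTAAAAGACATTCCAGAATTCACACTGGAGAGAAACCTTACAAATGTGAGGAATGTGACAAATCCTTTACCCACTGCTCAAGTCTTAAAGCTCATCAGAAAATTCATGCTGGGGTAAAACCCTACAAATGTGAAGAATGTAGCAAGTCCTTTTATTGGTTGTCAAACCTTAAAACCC
Clcn1: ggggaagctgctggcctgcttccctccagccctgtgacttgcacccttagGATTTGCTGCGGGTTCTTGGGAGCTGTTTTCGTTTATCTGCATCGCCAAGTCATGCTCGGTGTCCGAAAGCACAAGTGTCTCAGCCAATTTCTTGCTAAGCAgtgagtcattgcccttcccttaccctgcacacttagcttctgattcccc
Atg7: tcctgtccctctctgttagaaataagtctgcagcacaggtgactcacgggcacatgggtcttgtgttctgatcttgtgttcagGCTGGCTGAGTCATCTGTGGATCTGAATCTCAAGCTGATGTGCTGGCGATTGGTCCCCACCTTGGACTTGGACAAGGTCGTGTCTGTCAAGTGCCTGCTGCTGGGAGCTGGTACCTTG

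The 3 windows with the highest differences followed the same rule. Ms4a14 (chr19:11303161-11303361, minus strand) encodes a membrane protein of the MS4A family. Kat6a (chr8:22940343-22940543, plus strand) encodes a histone acetyltransferase. Nbeal2 (chr9:110638786-110638986, minus strand) encodes a protein needed for platelet granules.
Ms4a14: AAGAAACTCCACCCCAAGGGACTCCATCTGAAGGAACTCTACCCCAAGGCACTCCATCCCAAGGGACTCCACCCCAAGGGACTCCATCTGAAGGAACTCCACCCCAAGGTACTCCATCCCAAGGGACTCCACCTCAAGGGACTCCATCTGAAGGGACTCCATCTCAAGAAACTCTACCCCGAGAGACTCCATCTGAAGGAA
Kat6a: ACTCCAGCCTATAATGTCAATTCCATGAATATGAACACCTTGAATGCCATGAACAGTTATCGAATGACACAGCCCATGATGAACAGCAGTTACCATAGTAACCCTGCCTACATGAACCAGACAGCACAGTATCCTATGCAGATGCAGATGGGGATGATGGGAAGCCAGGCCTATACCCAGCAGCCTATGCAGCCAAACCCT
Nbeal2: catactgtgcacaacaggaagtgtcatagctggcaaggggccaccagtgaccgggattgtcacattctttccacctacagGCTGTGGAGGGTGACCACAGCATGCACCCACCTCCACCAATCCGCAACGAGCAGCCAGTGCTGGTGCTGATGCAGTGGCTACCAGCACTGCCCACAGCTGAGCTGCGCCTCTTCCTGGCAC

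The last pair had the highest mean concentrations of all coding exon windows. Angptl6 (chr9:20878060-20878260, minus strand) encodes a secreted angiopoietin-like protein. Spaca6 (chr17:17838186-17838386, plus strand) encodes a sperm membrane protein required for fertilization, and its window spans a short intron between exons.
Angptl6: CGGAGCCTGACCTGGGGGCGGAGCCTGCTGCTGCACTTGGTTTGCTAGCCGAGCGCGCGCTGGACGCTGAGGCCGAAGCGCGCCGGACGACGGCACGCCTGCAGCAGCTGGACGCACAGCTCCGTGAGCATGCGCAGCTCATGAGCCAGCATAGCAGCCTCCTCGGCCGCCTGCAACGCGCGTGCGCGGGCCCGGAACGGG
Spaca6: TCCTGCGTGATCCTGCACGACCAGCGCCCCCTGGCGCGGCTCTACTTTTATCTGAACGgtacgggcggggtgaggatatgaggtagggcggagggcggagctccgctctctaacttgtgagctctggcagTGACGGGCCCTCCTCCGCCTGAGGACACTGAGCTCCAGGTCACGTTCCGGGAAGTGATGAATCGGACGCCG

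Coding exon peaks were, at the median, nearly equal in both groups, while most other peaks had fewer reads with Prox1. The median difference over the 2463 peaks was -0.04 log2 units, with quartiles at -0.49 and 0.46, and 52.4% lay below 0. The median window had 103 normalized reads in 4in1_GFP_OE and 99.3 in 4in1_Prox1_OE. Over all 176680 peaks the median difference was -0.42. Intronic peaks lay at -0.52, intergenic peaks at -0.49 and promoter peaks, within 1 kb of a start site, at -0.21. Distal peaks with some, but fewer than 100, coding bases lay between, at -0.20 over 2606 windows.

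Read totals differed between the groups in the same way. Summed over all peaks, the 4in1_Prox1_OE group means came to 0.751 of the 4in1_GFP_OE ones, and over the coding exon peaks to 0.913. The methods refer to the DiffBind vignette for the scaling of libraries and name no setting, and the position of 0 is set by that scaling. Relative to the median of all peaks, the coding exon median was 0.38 higher.

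Of the coding exon peaks, 269 (10.9%) were lower by at least 1 log2 unit with Prox1, beside 24.4% of all peaks. Another 278 (11.3%) were higher by at least 1 log2 unit, beside 8.33% of all peaks. Of the windows past 1 log2 unit, 49.2% were thus lower, a share that became 15.9% (97 lower and 512 higher) with the differences centred on the median of all peaks. It was 27.6% (148 lower and 389 higher) with centring on the 10% of peaks of highest concentration. At 0.5 log2 units, 600 coding exon peaks (24.4%) were lower and 581 (23.6%) higher, beside 46.2% and 14.8% of all peaks. At 2 log2 units, 7 (0.284%) were lower and 53 (2.15%) higher, beside 0.367% and 2.22% of all peaks. The lower side of the distribution was thus short compared with all peaks, and the higher side was near or above the background.

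**Figure D1:**
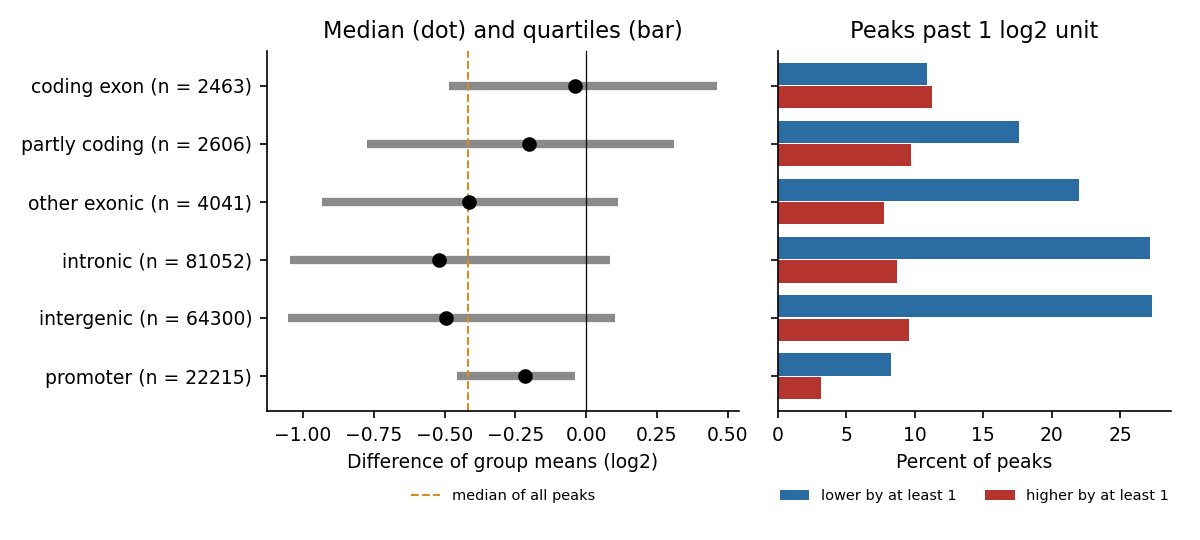
Left, median difference (dot) and quartiles (bar) of the 6 classes of peaks in log2 units, with the median of all peaks as a dashed line. Right, percent of each class lower or higher by at least 1 log2 unit. The coding exon median sits at -0.04 and all other classes lie lower, and coding exon peaks have 10.9% lower and 11.3% higher.

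The 3 windows over Prox1 had far more reads in 4in1_Prox1_OE. The window in coding exon 1 had 16.1 normalized reads in 4in1_GFP_OE against 6847 in 4in1_Prox1_OE, a difference of 8.73 log2 units. That in coding exon 3 had 13.8 and 2078, a difference of 7.23. That in coding exon 4 had 3.42 and 1632, a difference of 8.90. The transgene carries the coding sequence of mouse Prox1, so reads from the integrated vector map to these exons. The windows check the labels of the groups and say nothing of chromatin at the Prox1 gene.

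**Figure D2:**
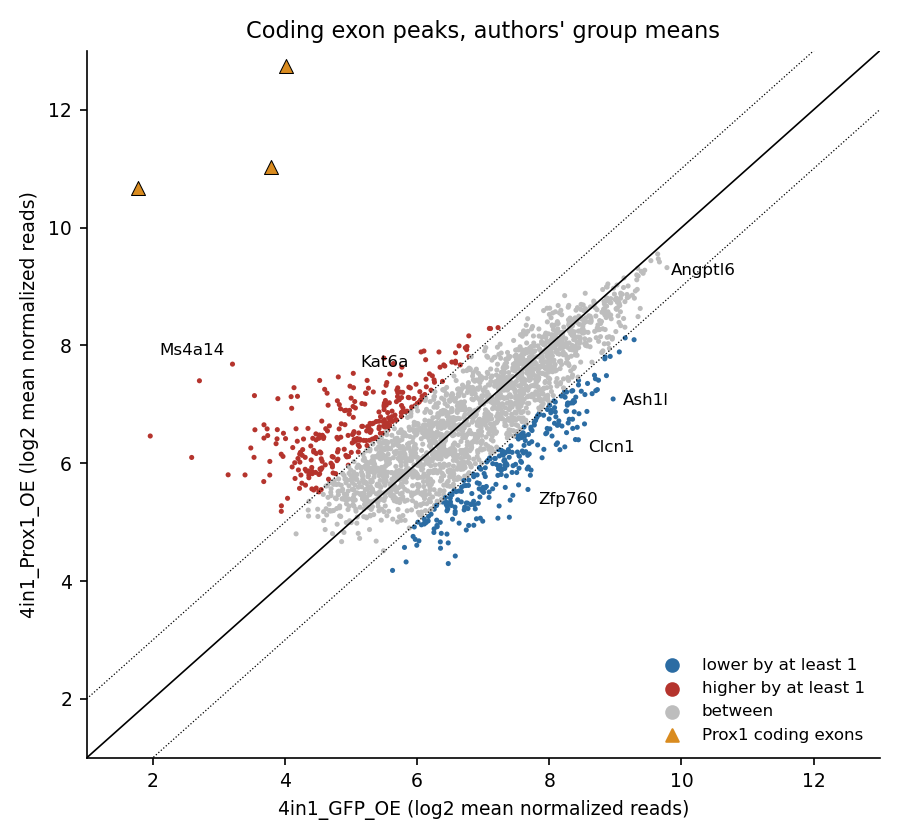
Each point is 1 coding exon peak, with the log2 mean of normalized reads in 4in1_GFP_OE on the x axis and in 4in1_Prox1_OE on the y axis. The solid line marks equal means and the dotted lines 1 log2 unit, with 269 peaks below and 278 above. The 3 Prox1 windows, triangles, lie at 7.23 to 8.90 log2 units above the line of equal means.

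The fibroblast label was checked at promoters. All 9 fibroblast markers, among them the collagens and Prrx1, had a promoter peak. The sums of the markers' means were 3479 normalized reads in 4in1_GFP_OE and 2604 in 4in1_Prox1_OE. None of 4 hepatocyte and none of 2 haematopoietic markers had one. Of 3 endothelial markers 2 had one, with summed reads of 666 and 326. Both epithelial markers had one, with 380 and 592, mostly through Epcam (194 and 389). Both neuronal markers had one, with 632 and 649, and Snap25 (344 and 303) and Syt1 (287 and 346) lay in opposite directions. Among the fibroblast markers, Thy1 (156 and 179) was the 1 with the higher mean in 4in1_Prox1_OE. Of 2 muscle markers 1 had one, with 64.3 and 118. The part of a differing cell make-up in the values below was not tested.

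Which level a window had went with the sign of its difference. In the decile of lowest concentration, the median of 338 coding exon peaks was 0.44, with 10 lower and 72 higher by at least 1 log2 unit. These were 2.96% and 21.3%, against 12.1% and 29.6% of other distal peaks in that decile, so fewer coding exon peaks lay past 1 log2 unit in either direction there. In the decile of highest concentration the median of 183 peaks was -0.22, with 8 lower (4.37%, against 24.0% of other distal peaks) and 0 higher. The medians of other distal peaks went from 0.21 to -0.56. In each of the 10 deciles the coding exon median was above that of the other distal peaks. Of the 53 coding exon peaks higher by at least 2 log2 units, 49 lay below the median concentration of all peaks, and their median was 17.2 normalized reads in 4in1_GFP_OE and 96.4 in 4in1_Prox1_OE. Low control means follow from choosing windows by this difference, so these values are a description.

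**Figure D3:**
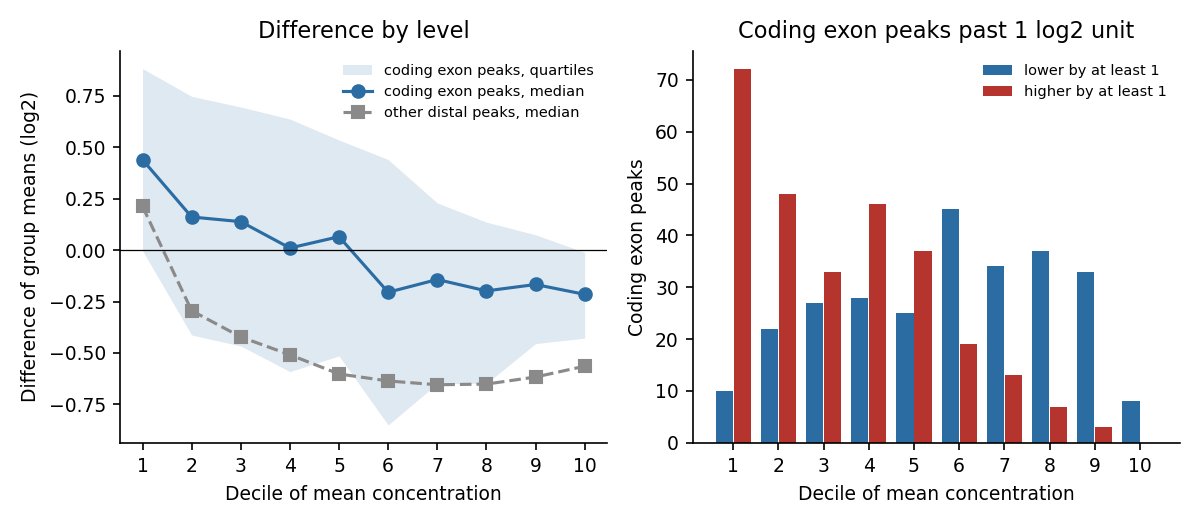
Left, median difference in log2 units of coding exon peaks (circles, band for the quartiles) and of other distal peaks (squares) in deciles of mean concentration set over all peaks. Right, number of coding exon peaks lower or higher by at least 1 log2 unit in each decile. Medians go from 0.44 in the first decile to -0.22 in the last, and the counts change from 10 lower and 72 higher to 8 lower and 0 higher.

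Base composition went with the difference as well. The median coding exon window was 58.2% G and C, against 47.8% for other distal peaks and 61.2% for promoter peaks. Among coding exon windows of up to 45% GC, the median difference was -0.81 (194 windows, 75 lower and 16 higher by at least 1 log2 unit). From 45 to 50% it was -0.49 (284 windows, 84 lower and 28 higher), and from 50 to 55% it was -0.15 (395 windows, 57 lower and 59 higher). From 55 to 60% it was 0.04 (584 windows, 37 lower and 79 higher), and over 60% it was 0.09 (1006 windows, 16 lower and 96 higher). The Zfp760 window printed above, at 38.3% GC, and the Angptl6 window, at 72.1%, are examples from both ends.

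Coding exon peaks were next compared with other distal peaks of like level and composition. Without matching, the mean difference was 0.38 log2 units above that of other distal peaks. Within deciles of concentration the gap was 0.37, and within deciles of GC content it was 0.17. Within both together it was 0.15, and against intronic peaks alone it was 0.16. The share of windows lower by at least 1 log2 unit was 16 percentage points under that of other distal peaks without matching, and 3.42 points under it within both. The larger part of the gap was thus also present between GC-rich and GC-poor peaks that were not coding. The part of base composition in the gap that was left within strata was not tested.

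The gap did not rest on 1 chromosome. On each of the 20 chromosomes with 10 or more members, the coding exon median was above the other distal median. The gap within strata was above 0 on 19 of the 20, and ranged from -0.07 to 0.32. Coding exon medians ranged from -0.31 on chromosome X, with 29 windows, to 0.18 on chromosome 16.

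By position within the gene, medians differed little and the shares past 1 log2 unit more. Windows over internal coding exons had a median of -0.04 (1677 windows), windows over the last coding exon -0.002 (573), windows over single coding exons -0.04 (84) and windows over the first coding exon -0.12 (110). The 19 windows on exons of another transcript than the one of longest coding sequence had -0.47. Windows lower and higher by at least 1 log2 unit were 13.6% and 3.64% of those over first coding exons, 12.3% and 13.1% over internal ones, 6.63% and 8.55% over last ones and 5.95% and 4.76% over single ones. By distance from the nearest start site, they were 6.23% and 6.91% at 1 to 5 kb, 11.7% and 12.3% at 5 to 20 kb, 16% and 13.8% at 20 to 50 kb and 12.9% and 18% beyond 50 kb. Medians in these distance classes were -0.06, 0.01, -0.10 and -0.19. Windows on exons of up to 200 coding bases lay at -0.11 (1111 windows), those of over 200 to 500 bases at 0.06 (652), those of over 500 to 1000 bases at 0.05 (326) and those over 1000 bases at -0.04 (355). The 826 wholly coding windows had a median of 0.04, with 58 (7.02%) lower and 93 (11.3%) higher by at least 1 log2 unit. Those less than 75% coding had -0.10, with 156 (13.6%) lower and 130 (11.4%) higher. Over all peaks the shares were 24.4% and 8.33%. The wholly coding and the less coding windows had GC contents of 62.7% and 55.7% at the median. At the edge of the rule, windows with 100 to under 110 coding bases had a median of -0.19 (281 windows) and excluded windows with 90 to under 100 had -0.14 (263). Windows 1000 to 1200 bases from a start site had -0.13 (68 windows), and those 800 to 1000 bases from one, excluded as promoter peaks, had -0.02 (65).

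Short sequence words were searched on both strands in every window. The AP-1 word TGACTCA, bound by FOS and JUN dimers, was present in 305 coding exon windows (12.4%) against 25.3% of other distal peaks and 23.0% of all peaks. The median difference of the 305 was -0.68. Of them 101 (33.1%) were lower and 30 (9.84%) higher by at least 1 log2 unit, beside 24.4% and 8.33% of all peaks. Windows without the word had a median of 0.01. Among other distal peaks the medians were -0.85 with the word and -0.38 without it. Within strata of concentration and GC content, coding exon windows with the word were 0.36 log2 units lower on average than those without.

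Both intron and coding bases carried the AP-1 word. There were 323 matches in the 305 windows, and 210 of them lay wholly in coding bases, at 5.38 per 10000 bases searched. Another 112 lay wholly outside coding bases, at 10.7 per 10000 bases. Windows with a coding match had a median difference of -0.73 (199 windows) and those with a match outside had -0.60 (110 windows). The Clcn1 window shown above holds the word at bases 154 to 160, in the intron just after the exon. The Atg7 window holds it at bases 40 to 46 in the intron and again at bases 90 to 96 in the exon. The word was in 37.5% of the 269 windows lower by at least 1 log2 unit and in 10.8% of the 278 higher ones.

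The AP-1 word and base composition were also read together. Up to 50% GC, windows with the word had a median of -1.02 (126 windows) and those without had -0.44 (352 windows). From 50 to 55% the medians were -0.43 and -0.11, and from 55 to 60% they were -0.47 and 0.07. Over 60% GC they were 0.02 (45 windows) and 0.09 (961 windows). The medians were therefore closest where GC was highest, while 8.89% of windows with the word and 1.25% of those without were lower by at least 1 log2 unit there.

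**Figure D4:**
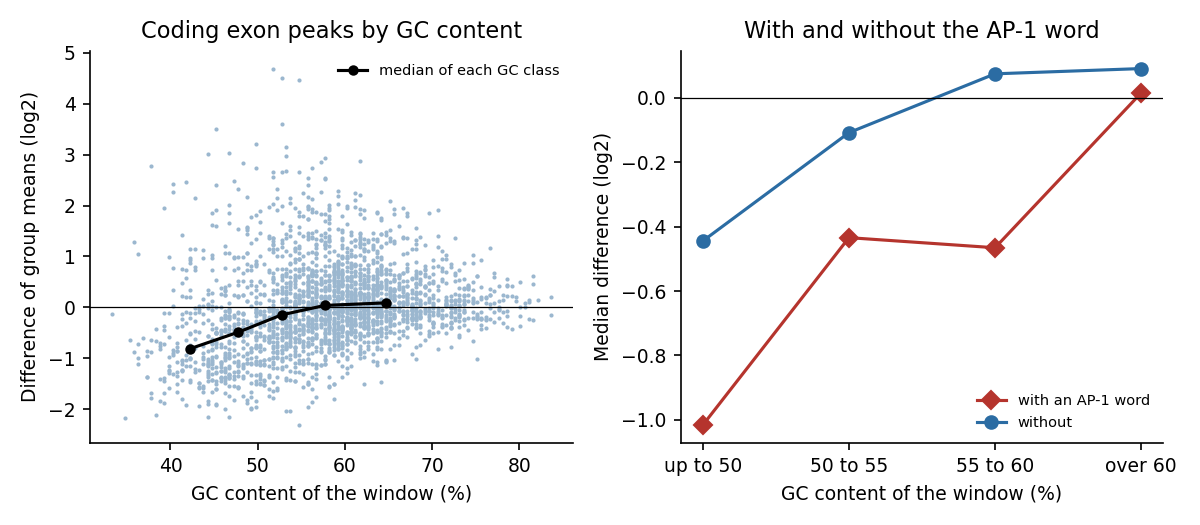
Left, difference in log2 units of each coding exon peak against the GC content of its window, with the median of each of the 5 GC classes joined by a line from -0.81 to 0.09. Right, median difference with (diamonds) and without (circles) the AP-1 word in 4 classes of GC content. Windows with the word have the lower median in all 4 classes, at -1.02 against -0.44 in the first and 0.02 against 0.09 in the last.

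Other words gave smaller separations. The TEAD word GGAATG, of the factors that act with YAP, was in 321 windows (13%, against 21.5% of other distal and 20.1% of all peaks), with a median of -0.29 against -0.01 without it. The GATA word AGATAA was in 83 (3.37%, against 6.72% of all peaks), with a median of -0.22. The E-box CAGCTG, read by basic helix-loop-helix factors of muscle and nerve, was in 592 (24.0%, against 15.9% of all peaks), with medians of 0.01 with it and -0.05 without. The FOXA word TGTTTAC was in 27 (1.1%, against 2.65% of all peaks), with medians of 0.17 with it and -0.04 without, although 5 of the 27 (18.5%) were lower and 1 (3.7%) higher by at least 1 log2 unit. The HNF4 word CAAAGTCCA was in 4, none of them past 1 log2 unit. A PROX1 consensus, with 1 mismatch allowed, matched 6 windows (0.244%, against 0.305% of all peaks). A match is a description of letters and not a site.

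No window with a CTCF consensus was past 1 log2 unit. CTCF is the insulator protein that anchors chromatin loops. Its consensus matched 87 coding exon windows (3.53%, against 3.15% of all peaks). Their median difference was -0.12, and 0 were lower and 0 higher by at least 1 log2 unit, where 10.9% and 11.3% of all coding exon windows were. Among other distal peaks the medians were -0.19 with the consensus and -0.52 without it, so lying nearer 0 was not particular to coding exons. The median concentration of the 87 windows was 7.52 on the log2 scale, against 6.63 for coding exon windows without the consensus. Smarcd3, a subunit of the SWI/SNF chromatin remodeller, had such a window in coding exon 2 with 289 normalized reads in 4in1_GFP_OE against 387 in 4in1_Prox1_OE, a difference of 0.42. Slc8a3, a sodium-calcium exchanger, had one in its last coding exon with 288 and 296 reads, a difference of 0.04.

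The lowest windows among those at or above the median concentration are given with both group means. Zfp760 had 205 normalized reads in 4in1_GFP_OE against 47.0 in 4in1_Prox1_OE, a difference of -2.12. Clcn1 had 347 and 84.3, a difference of -2.04 in coding exon 10 of 23, and Atg7 had 170 and 41.4, a difference of -2.03 in coding exon 11 of 19. Each of these windows was thus lower by about 2 log2 units than in the control. Atxn10, the gene of ataxin-10, had 337 and 84.6 reads in coding exon 2 of 11, a difference of -1.99. Sipa1l1, a GTPase-activating protein for RAP, had 175 and 43.9 in its first coding exon, also -1.99, with an AP-1 word. Spag9, a scaffold of JNK signalling, had 301 and 77.6 in coding exon 14, a difference of -1.96, and 80.5 and 44.4 in coding exon 21, a difference of -0.86.

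The remaining 4 were similar in size. Nek4, a protein kinase, had 286 and 75 reads in coding exon 13, a difference of -1.93. Alg14, an enzyme of N-glycan assembly, had 210 and 55.5 in coding exon 2, a difference of -1.92. Rabgap1, which switches off RAB GTPases, had 186 and 49.6 in coding exon 10, a difference of -1.90, and 132 and 48.7 in coding exon 16, a difference of -1.44. Both Rabgap1 windows were past 1 log2 unit. Ash1l, a histone methyltransferase, had 500 and 136 reads in coding exon 2, a difference of -1.88, and was the most accessible of these 10. The AP-1 word was in the windows of Clcn1, Atg7, Sipa1l1, Nek4 and Rabgap1 (coding exon 10).

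Most of these genes had promoter peaks that differed far less. The promoter value of a gene is the difference of the most accessible peak within 1 kb of its start sites. It was -0.38 for Zfp760, -0.38 for Atxn10, -0.48 for Sipa1l1, -0.25 for Spag9, -0.22 for Nek4, -0.13 for Alg14, -0.21 for Rabgap1 and -0.34 for Ash1l. For Clcn1 and Atg7 no such peak was in the table used here. The median of the intronic peaks of Clcn1 was -1.32 (2 peaks) and that of Atg7 was -0.22 (34 peaks). The exon windows thus lay further from 0 than the promoter peaks of the same genes in all 8 genes that had both, as their choice by size makes likely.

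The highest windows are given in the same way, and their low control means follow in part from being chosen by the difference. Ms4a14 had 9.23 normalized reads in 4in1_GFP_OE against 205 in 4in1_Prox1_OE, a difference of 4.48, and its other window in the same exon had 6.02 and 68.5, a difference of 3.51. Kat6a had 32.8 and 184, a difference of 2.49, and its other window in the same last exon had 23.0 and 56.5, a difference of 1.30. In both genes the neighbouring windows lay in the same direction. Nbeal2 had 45.2 and 220 in coding exon 13, a difference of 2.29, while its windows in coding exon 31 (91.0 and 90.8) and coding exon 33 (184 and 182) were at equal levels, with differences of -0.003 and -0.01. Group means within the Nbeal2 gene thus differed at 1 exon of the 3, which is the exon that the choice by difference picked.

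The other 7 are given next. Of the 10, Kat6a and Kmt2d were in the list of chromatin regulators. Myom2, of the sarcomere M-band, had 49.9 and 207 reads in coding exon 10, a difference of 2.05. Kmt2d, a histone methyltransferase of enhancers, had 48.0 and 183 in coding exon 16, a difference of 1.93. Tekt5, a sperm flagellum protein, had 54.6 and 198 in its last coding exon, a difference of 1.86. Lrp1, an endocytic receptor, had 66.7 and 237 in coding exon 18, a difference of 1.83, then 58.8 and 97.7 in coding exon 16 (0.73) and 288 and 250 in coding exon 24 (-0.21). Mllt6 had 46.6 and 165 in coding exon 19, a difference of 1.83. Git1, a scaffold of focal adhesions, had 68.8 and 240 in coding exon 6, a difference of 1.80. Mthfd1, an enzyme of folate metabolism, had 53.8 and 181 in coding exon 20, a difference of 1.75. Of these 10 windows only that of Lrp1 held the AP-1 word.

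Promoter values of the highest genes did not follow. They were -1.06 for Ms4a14, -0.12 for Kat6a, -0.18 for Nbeal2, -0.16 for Kmt2d, 0.01 for Tekt5, -0.48 for Lrp1, -0.27 for Mllt6, -0.33 for Git1 and -0.29 for Mthfd1. Across the 1814 genes that had both a coding exon peak and a promoter peak, the median difference was -0.03 in the exon (the median of a gene's windows) and -0.17 at the promoter, and the exon was above the promoter in 55.7%. The correlation between them across genes was weak (Pearson r 0.07, Spearman rho 0.10). Across 1491 genes with both coding exon and intronic peaks, the exon median was -0.06 and the intronic median -0.39. The exon was above the introns in 63.1% of these genes (r 0.13, rho 0.14). Genes are not independent replicates, and both values of a gene come from the same libraries. The gap to non-coding windows was therefore also seen inside the same genes, without matching for GC content or level. The promoter peaks compared had a median concentration of 8.80. The intronic peaks had 6.68, and the coding exon peaks of the genes with intronic peaks had 6.53.

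A few of the largest positive differences lay in repeated coding sequence, and most did not. The number of different 8-base words in a window was counted after the values had been seen, and the median window held 193 of the 194 possible. The Ms4a14 window printed above held 97 (50.0%), the lowest of all, and its repeating units can be read in the sequence. F5, the gene of coagulation factor V, followed with 106, and had 13.4 and 88.6 normalized reads, a difference of 2.73. Defb22, a beta-defensin, held 117, with 18.2 and 82.9 reads, a difference of 2.19. Txndc2, a sperm thioredoxin, held 153, with 3.90 and 88.1 reads, a difference of 4.50. Most of the 53 windows higher by at least 2 log2 units were not under 80% different words. Among these, Grm3 (6.53 and 169 reads, 4.69) and Ep300 (17.6 and 156, 3.14) held 100%. Of the 14 windows with under 80% different words, 9 were higher and 0 lower by at least 1 log2 unit, beside 8.33% and 24.4% of all peaks and 11.3% and 10.9% of coding exon peaks, with a median of 1.24. Krt1, a keratin of the epidermis, with 126 words, went the other way with 289 and 213 reads (-0.44). Reads in repeated sequence and in gene families with near-identical copies can be placed among several positions by an aligner, so the values of these windows, and of the zinc finger and olfactory receptor windows, are uncertain in that respect.

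The most accessible coding exon windows had somewhat fewer reads with Prox1. Angptl6 had 798 normalized reads in 4in1_GFP_OE against 750 in 4in1_Prox1_OE, a difference of -0.09. Spaca6 had 879 and 639, a difference of -0.46. Sptbn4, a neuronal spectrin, had 803 and 709 in coding exon 32, a difference of -0.18. Kank3 had 812 and 683 in coding exon 2, a difference of -0.25, and Fbxl22, of an F-box ubiquitin ligase of muscle, had 743 and 693, a difference of -0.10. All 5 were GC-rich, between 63.7% and 76.1%, and lay within 0.5 log2 units of equality.

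Genes with several windows allow exons of 1 transcript to be set side by side. Of the 2166 genes, 1927 had 1 window, 200 had 2 and 39 had 3 or more. In the 239 genes with at least 2, the range of differences within a gene had a median of 0.64. All windows were below 0 in 66 genes and above 0 in 65, and signs were mixed in 108. In 7 genes, 1 window was lower and another higher by at least 1 log2 unit.

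Sptbn4, with 6 windows, had differences from -0.53 in coding exon 22 (253 and 175 reads) to 0.81 in coding exon 20 (54.1 and 94.8). Hmcn2, an extracellular matrix hemicentin, had 5, from -0.39 in coding exon 98 (353 and 269 reads) to 0.89 in coding exon 45 (31.9 and 59.0). In both genes, the windows above 0.5 had fewer than 110 reads in the control group, as choosing them by the difference makes likely.

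Among the 9 genes with at least 3 windows at or above the median concentration of all peaks, Srcin1 had the widest range. It encodes an inhibitor of SRC kinase, and its coding exon 11 had 80.5 and 237 reads, a difference of 1.56. Its coding exons 12, 8 and 5 had differences of -0.21, -0.05 and 0.02. Cyp26c1, a retinoic acid hydroxylase, had 0.76 in coding exon 3 (133 and 225 reads), -0.46 in coding exon 5 (159 and 116) and 0.14 in coding exon 6 (313 and 346). Coding exon 11 of Srcin1 thus stood apart from the gene's other windows, while the values of Cyp26c1 were spread. Both genes were named for their wide range, so such departures follow from the choice, and no error is attached to them.

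By gene list, the medians of coding exon windows spanned -0.18 to 0.38, beside -0.42 for all peaks. The lists were read by name patterns, held 483 windows in all, and each count is beside 24.4% lower and 8.33% higher over all peaks. Extracellular matrix genes had 63 windows with a median of 0.10, of which 3 were lower and 8 higher by at least 1 log2 unit. The lower ones were Col1a2, a chain of type I collagen of fibroblasts (155 and 58.8 reads, -1.40), Adamts16, a matrix protease (213 and 82.4, -1.37) and Thbs2, a thrombospondin (87.5 and 36.6, -1.26). Among the higher ones were Col8a1 (27.7 and 133, 2.3) and Thbs3 (30.0 and 101, 1.75). The most accessible windows were in Hspg2, perlecan (533 and 417, -0.35), and Itgb7, an integrin of lymphocytes (482 and 427, -0.18).

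Signalling receptors and ligands had 56 windows with a median of 0.14, of which 4 were lower and 13 higher. The lower ones were the collagen receptor Ddr2 (370 and 102 reads, -1.87), the Hedgehog receptor Ptch1 (204 and 70.2, -1.54), the insulin receptor Insr (130 and 47.7, -1.45) and the Slit receptor Robo1 (152 and 69.7, -1.12). The higher ones held the plexin Plxnb1 (32.7 and 125, 1.93), the Wnt co-receptor Lrp5 (28.7 and 121, 2.08) and Notch1 (150 and 315, 1.08). Notch4 (685 and 598, -0.20) and Wnt10a (468 and 446, -0.07) were the most accessible. The lower windows of this list had more than 130 reads in the control group, and all but 1 of the higher ones had fewer than 70. Such control means follow in part from sorting windows by this difference.

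Chromatin regulators had the largest share past 1 log2 unit in both directions together, with 8 lower and 14 higher of 49 and a median of 0.22. Lower windows lay in the histone methyltransferase Kmt2a (305 and 118 reads, -1.37), the demethylase Kdm5b (227 and 79.4, -1.51) and the remodeller Chd7 (222 and 106, -1.07). Higher ones lay in the acetyltransferases Ep300 (17.6 and 156, 3.14) and Crebbp (32.8 and 110, 1.74), in addition to Kat6a and Kmt2d above. Kdm5b had another window on the higher side (42.9 and 105, 1.29).

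Zinc finger genes were the list with most windows on the lower side, 14 of 49 (28.6%), against 2 higher (4.08%), and a median of -0.17. The lower share was near the 24.4% of all peaks. Beside Zfp760, the lower windows included Zfp53 (88.7 and 19.7 reads, -2.17), Zfp609 (237 and 68.3, -1.80), Zfp961 (275 and 79.8, -1.79) and Zfp653 (333 and 117, -1.50). The higher ones were in Zfp362 (25 and 93.6, 1.90) and Zbtb44 (66.4 and 135, 1.02). Of the 16 windows of this list under 50% GC, 10 were lower and 1 higher, with a median of -1.12. Of the other 33, 4 were lower and 1 higher, with a median of 0.04. The GC-rich and most accessible windows in Zfp771 (647 and 634, -0.03) and Zfp697 (470 and 509, 0.12) were near equal. The list's lower windows were thus mostly its GC-poor ones, and GC was not separated from membership.

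Genes of neuronal adhesion and channels had 62 windows with a median of 0.21, 1 lower and 10 higher. The lower one was in the sodium channel Scn3a (92.8 and 33.1 reads, -1.49). The higher ones included a pair of windows of the calcium channel Cacna1i (31.4 and 114, 1.86, and 21.4 and 85.8, 2.00), the cadherin Cdh23 (23.7 and 88.9, 1.91) and the glutamate receptor Grm3 (6.53 and 169, 4.69), the largest difference among all coding exon windows. The accessible Cacna1a window (560 and 566, 0.01) was equal and that of Scn8a (458 and 367, -0.32) was near it.

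Developmental transcription factors had 64 windows with a median of 0.05, 1 lower and 5 higher. The lower one was in Zeb1, a transcription factor of mesenchymal cells (123 and 60.8 reads, -1.02). The higher ones included those in Sox6 (12.8 and 101 reads, 2.97), Foxk2 (33.3 and 132, 1.99) and Foxa1 (76.8 and 166, 1.11), a pioneer factor of liver and other endoderm. The most accessible were in Klf1, the erythroid factor (518 and 446, -0.21), and Klf4, the pluripotency and epithelial factor (532 and 335, -0.67). Genes of the actin cytoskeleton list, which by its name patterns also holds intermediate filament genes such as keratins, had 50 windows with a median of -0.18, 3 lower and 1 higher. Lower ones were in Svil (168 and 33.9, -2.31), Macf1 (83.7 and 40.5, -1.05) and the keratin Krt24 (133 and 65.0, -1.03), the higher one was in the myosin Myh3 (40.8 and 85.5, 1.07), and the most accessible beside Sptbn4 was in Myo15b (641 and 554, -0.21). Svil had the lowest difference of all coding exon windows.

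The list of hepatocyte plasma protein and metabolism genes, which by its name patterns also holds family members that are not typical of hepatocytes, such as Cyp24a1, Serpina1f and Aldh3b3, had 26 windows with a median of 0.09, 1 lower and 3 higher. The lower one was in Serpina1f (61.4 and 27 reads, -1.18). The higher ones were in F5, given above, in the vitamin D hydroxylase Cyp24a1 (17.2 and 122, 2.83) and in Aldh3b3 (54.2 and 111, 1.03). The most accessible were F12, coagulation factor XII (490 and 350, -0.48), and Apoa1, the apolipoprotein of HDL (438 and 284, -0.63). Solute carriers had 43 windows with a median of 0.03, 2 lower and 4 higher. The lower ones were in Slc39a12 (118 and 37.4, -1.65) and Slc43a2 (193 and 90, -1.1). The higher ones were in Slc39a9 (31.7 and 158, 2.32), Slc27a5 (21.3 and 56.6, 1.41), Slc26a7 (38 and 98.4, 1.37) and Slc39a11 (39.5 and 94.2, 1.25). Slc4a5 (578 and 466, -0.31) was the most accessible of them. Gene expression housekeeping genes had 19 with a median of -0.15, 2 lower and 3 higher. The lower ones were in the splicing factor Prpf8 (292 and 99.1, -1.56) and in Hnrnpr (129 and 56.7, -1.19). The higher ones were in Ddx11 (19.8 and 68.6, 1.79), 1 window of Polr3e (29.8 and 75.4, 1.34) and Eif3c (26.3 and 61.2, 1.22). The proteasome subunit Psmc2 (541 and 446, -0.28) and another window of Polr3e (313 and 207, -0.60) were the most accessible.

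Among liver factors used to reprogram fibroblasts to hepatocytes, Gata4, a factor of endoderm and heart, had windows within 1 log2 unit. It had 186 normalized reads in 4in1_GFP_OE against 243 in 4in1_Prox1_OE in coding exon 1 (0.38), 161 and 103 in coding exon 2 (-0.64) and 126 and 106 in coding exon 3 (-0.24). Which factors 4in1 encodes was not given in the sources used here, both groups carry it, and reads from a vector and from the genome would not be separated in such exons.

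**Figure D5:**
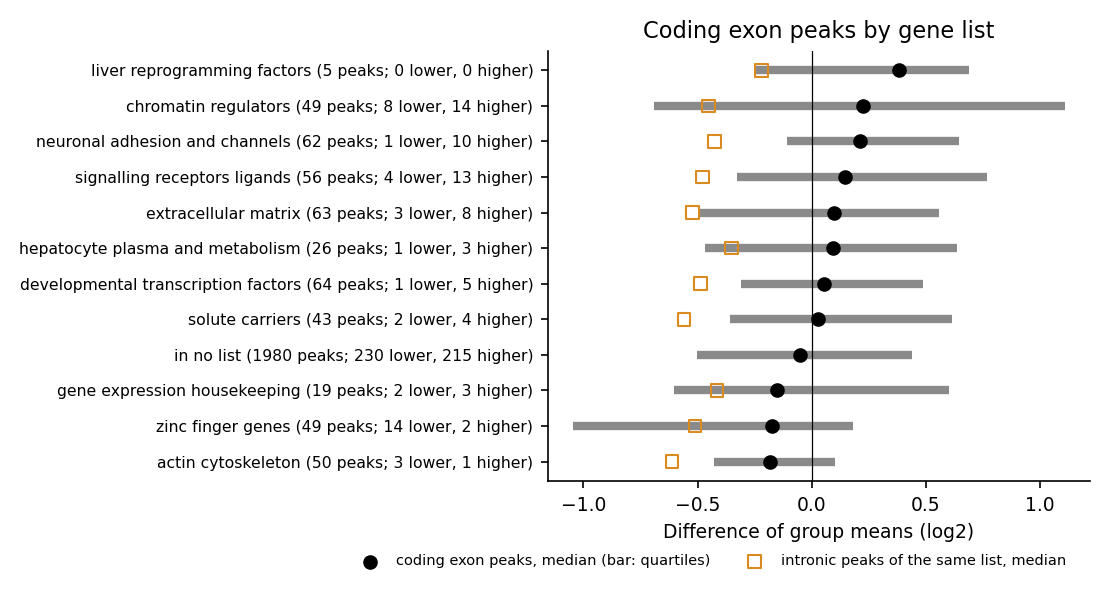
Median difference in log2 units (dot) and quartiles (bar) of coding exon peaks in each of the 11 gene lists and in the 1980 peaks of no list, with the median of intronic peaks of genes of the same list as an open square. List medians run from -0.18 to 0.38, each above its intronic median, which lie between -0.61 and -0.22.

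In each of the 11 lists the coding exon median was above that of the intronic peaks of the list's genes, which ranged from -0.61 for actin cytoskeleton to -0.22 for the liver factors. In the 1980 windows of no list the median was -0.05, with 230 (11.6%) lower and 215 (10.9%) higher, beside 24.4% and 8.33% of all peaks.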

How the data were processed

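ATAC-seq reads from MEFs were processed by the authors. Per the labels and methods, reads were trimmed (Trimmomatic 0.38), aligned to mm10 (Bowtie2 2.3.4.3), filtered (SAMtools 1.10, Picard 2.18.16, bedtools 2.27.1) with recalibration for Tn5 bias, and counted in consensus windows with DiffBind 3.4.11. Peaks were called with MACS2 2.1.2 in the methods, and another caller is named in the study's reporting summary. Of the deposited table, 3 columns were used: the authors' log2 mean of normalized reads over both groups and in each group. These hold no values of single libraries, so depth per library is unknown and no test or interval over replicates and no leave-one-out value was possible. Intervals over windows (95%) served only to judge the alternatives. The table's fold changes, p-values and false discovery rates, and the lists of intervals made from them, are the authors' own comparison. They were not used, printed or compared.

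Windows were matched to GENCODE M21 (basic set) and to GRCm38 sequence in Python 3.11.15 (pandas 2.3.3, numpy 2.4.6). Edge distances to start sites, coding bases, GC content and words were computed per window, with the gene of most coding bases naming it and exons numbered along the transcript of longest coding sequence. Strata were deciles of concentration and of GC content over all distal peaks, weighted by members. These steps were tested on simulated data. Members, gene lists, markers and rules for named genes were chosen with earlier results of these data known. Named were the 10 lowest and 10 highest differences at or above the median concentration (1 per gene), the 5 most accessible windows, Prox1 and liver factor windows, the 3 genes with most windows, the 2 most accessible windows of each list and the 3 genes of widest range. Some of these results are not reported here. List windows past 1 log2 unit, repeated windows and Svil, Grm3 and Txndc2 were named after their values were seen.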

Additional observations from a re-analysis of the deposited data

How the results depend on the processing

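No paired analysis was possible because single libraries have no values in the columns used, which are group means, and for the same reason no library could be left out. The limits are those of group means: low windows carry few reads, and library scaling sets the position of 0. The coding exon median of -0.04 became 0.38 with centring on all peaks and 0.22 with centring on the 10% most accessible, 0.0092 with at least 150 coding bases and 0.039 with windows wholly coding. It was -0.14 without the lowest 25% of peaks and -0.090 with at least 50 coding bases. The 269 lower and 278 higher windows became 97 and 512, and 148 and 389, under the centrings. They became 221 and 143 without the lowest 25%, 511 and 408 with 50 coding bases, 116 and 149 with 150, and 58 and 93 with windows wholly coding. They were 600 and 581 at 0.5 log2 units and 7 and 53 at 2. The lower share of windows past 1 log2 unit, 49.2%, became 15.9% and 27.6% under the centrings, 60.7% without the lowest 25%, 55.6% with 50 coding bases, 43.8% with 150, 38.4% with windows wholly coding and 11.7% at 2 log2 units. The gap to other distal peaks in strata, 0.15, became 0.18 with 150 coding bases, 0.22 with windows wholly coding, 0.20 with quintiles and 0.37 with concentration alone, and was above 0 under all 13 alternatives run for it. The causes were not tested. A 2 kb distance, start sites of protein-coding genes, autosomes, a pseudocount of 10 reads, 1 window per gene and, chosen after seeing the data, the comprehensive annotation (1994 windows, 1974 shared) left counts within 1.5 times and medians within -0.05 and -0.03.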

Other observations

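Windows on the lower and on the higher side differed in more than sign. The 269 windows lower by at least 1 log2 unit had a median of 48.3% GC, 3 CpG pairs and 163 normalized reads in 4in1_GFP_OE. The 278 higher ones had 57.2% GC, 5 CpG pairs and 32.8 reads there. The 1916 windows between had 59.2% GC, 7 CpG pairs and 110 reads. Lower windows lay at a median of 13441 bases from the nearest start site, higher ones at 12173 and those between at 7915. All of these are descriptions of windows grouped by the same values, with no test.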
